A study of Mus musculus with 57 samples.

Results

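The 9 genes described here act at the vessel wall, and were taken by symbol from lists of leukocyte adhesion, clotting and fibrinolysis genes. The rule uses no measured value, but the list was drawn up with earlier results of these data known. All 9 are among the 25416 genes of the acute and the 54658 genes of the chronic count table. Counts per gene were measured by RNA-seq of the hearts of wild type (WT) male C57BL6/J mice in 2 studies with separate count tables. The acute mice were 9 weeks old at purchase. In the acute study, 14 Ctrl mice were given saline, 13 Doxo mice were given 1 i.p. injection of 20 mg/kg doxorubicin (Doxo), an anthracycline used against tumors, and 13 Doxo-NMN mice received Doxo likewise together with nicotinamide mononucleotide (NMN), a precursor of NAD+, injected i.p. at 180 mg/kg/day and begun 5 days earlier. These hearts were collected at day 5, 2 h after the last NMN injection. In the chronic study, mice that were 12 weeks old at purchase and 14 to 16 weeks old at the first injection received PBS (5 Ctrl mice) or 5 i.p. injections of 4 mg/kg Doxo within 2 weeks (6 Doxo mice), and 6 Doxo-NMN mice also drank 500 mg/kg/day NMN. Chronic hearts were taken out 60 days past the initial injection. Each heart came from a mouse that was alive on the day of collection, and no group received NMN without Doxo. The study asked whether NMN limits the effects of Doxo, so within each study Doxo was compared with Ctrl (Doxo vs. Ctrl), and Doxo-NMN with each of the other groups.

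Leukocytes leave the blood in steps. P-selectin (*Selp*) and E-selectin (*Sele*) on activated endothelium let them roll, and ICAM-1 (*Icam1*) and VCAM-1 (*Vcam1*) bind their integrins and hold them. The same endothelium keeps blood fluid with thrombomodulin (*Thbd*), which turns thrombin into an activator of protein C, and with the endothelial protein C receptor (*Procr*), while tissue factor (*F3*) outside the vessel starts coagulation. Thrombospondin 1 (*Thbs1*) is a matrix and platelet granule protein, and the urokinase receptor (*Plaur*) places the plasminogen activator urokinase on the cell surface.

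The acute hearts had 32409622 to 52102850 total counts and the chronic hearts 17769886 to 23862287. Levels are given as counts per 1000000 (CPM) after TMM scaling, and 3 counts, taken as the smallest detectable value, are worth 0.0550 to 0.105 CPM in an acute heart and 0.124 to 0.172 CPM in a chronic one, for counting error only. The library labelled Doxo replicate 6 of the acute study stood apart from its group. Its summed level of 5 red cell genes was 338 CPM, against 1.19 to 3.85 CPM in the other 12 Doxo hearts and 437 to 4311 CPM in the Ctrl hearts, and none of the 9 genes was outside the Ctrl range in it. *Myl4*, an atrial myosin light chain, was over 100 CPM in 8 of 14 Ctrl, 5 of 13 Doxo and 4 of 13 Doxo-NMN acute hearts and in none of the 17 chronic hearts. Values without the first and within each side of the second are given where a result rests on them. In whole hearts, fewer cells of a type and less RNA per cell cannot be told apart.

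In the acute study, Doxo hearts had higher levels of both selectins, *Icam1*, *Plaur* and *Thbs1* and a lower level of *Thbd* than Ctrl hearts, and *Vcam1*, *F3* and *Procr* did not pass the test. The call of *Thbs1* depended on the hearts and settings used: it was lost without any single one of 8 of the hearts, with a replicate block and in voom, and the difference was −0.11 within hearts over 100 CPM of *Myl4*. All 5 genes called higher with Doxo were lower in Doxo-NMN than in Doxo hearts. None of the 9 was called between Doxo-NMN and Ctrl hearts. A gene was called at an adjusted p under 0.05 in edgeR's quasi-likelihood test, adjusted over all 14240 tested genes, and a fold change of at least 1.5. By this rule 14.7% of the tested genes were higher and 15.4% lower in Doxo vs. Ctrl, beside 5 and 1 of the 9. In Doxo-NMN vs. Doxo 8.17% were higher and 8.88% lower, beside 0 and 5 of the 9. In Doxo-NMN vs. Ctrl 3.31% were higher and 3.79% lower, beside 0 of the 9. Only 1 of the 9, *Thbd*, had an unadjusted p under 0.05 there. It was lower (log2 −0.50, edgeR's adjusted p = 0.00432) and missed the call only by the 1.5-fold limit. DESeq2 also called 0 there and limma's voom with sample weights 1. The first and second comparisons share the 13 Doxo hearts, so their values are not independent of each other. Without Doxo replicate 6, again 6, 5 and 0 of the 9 were called.

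**Figure D1:**
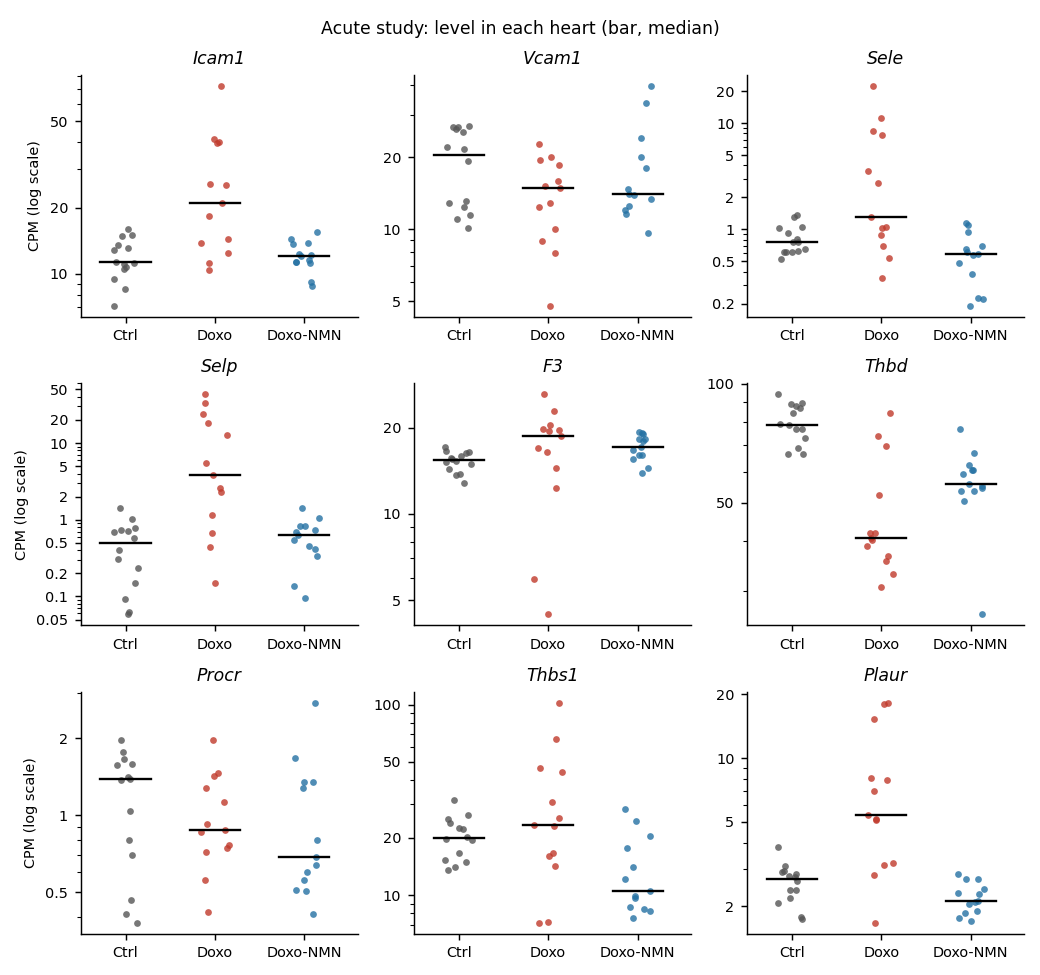
Level of each gene (CPM, log scale) in each of the 40 acute hearts by group, with the group median as a bar. In *Icam1*, *Sele*, *Selp* and *Plaur* the Doxo hearts spread upward from the Ctrl range, to 43.5 CPM in *Selp*, and the Doxo-NMN medians lie near those of Ctrl, while *Thbd* lies lower in most Doxo and Doxo-NMN hearts.

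The 250 bases before the RefSeq transcript starts of the 4 genes that rose most are shown here because these genes moved together. They are on the plus strand of GRCm38.p6, at chr1:164115014-164115263 (*Selp*), chr1:164047984-164048233 (*Sele*), chr7:24462233-24462482 (*Plaur*) and chr9:21015690-21015939 (*Icam1*), and none overlaps a GENCODE exon. Capitals mark an AP-1 motif (TGANTCA) and a TATA motif (TATAAA).
Selp: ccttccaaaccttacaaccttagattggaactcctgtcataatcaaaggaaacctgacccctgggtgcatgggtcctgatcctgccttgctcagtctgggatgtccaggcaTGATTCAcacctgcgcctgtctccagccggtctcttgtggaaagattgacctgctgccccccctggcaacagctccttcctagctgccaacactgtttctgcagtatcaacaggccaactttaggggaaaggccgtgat
Sele: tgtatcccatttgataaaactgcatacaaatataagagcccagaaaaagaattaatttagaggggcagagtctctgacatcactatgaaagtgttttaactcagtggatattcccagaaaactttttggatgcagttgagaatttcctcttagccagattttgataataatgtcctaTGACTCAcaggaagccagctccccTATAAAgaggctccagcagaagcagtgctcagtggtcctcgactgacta
Plaur: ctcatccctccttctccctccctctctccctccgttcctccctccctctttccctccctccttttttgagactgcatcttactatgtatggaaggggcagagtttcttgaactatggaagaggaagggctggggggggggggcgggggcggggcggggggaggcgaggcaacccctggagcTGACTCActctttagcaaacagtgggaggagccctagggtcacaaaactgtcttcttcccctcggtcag
Icam1: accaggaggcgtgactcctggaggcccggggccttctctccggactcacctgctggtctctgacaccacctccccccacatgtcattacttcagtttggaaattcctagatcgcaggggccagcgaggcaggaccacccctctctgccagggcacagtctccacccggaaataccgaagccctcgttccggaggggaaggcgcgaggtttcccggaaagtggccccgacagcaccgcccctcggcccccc

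The AP-1 letters TGANTCA, which read the same way on both strands, lie 139 to 133 bases before the start in *Selp*, 73 to 67 in *Sele* and 69 to 63 in *Plaur*, and are not in the window of *Icam1*. RefSeq windows were at hand for 6 of the 9 genes (also *F3* and *Procr*), and 5 of the 6 hold TGANTCA, against 6.75% of all 32851 RefSeq windows of this length. *F3*, with 2 such motifs, and *Procr*, with 1, were not called in any comparison between groups. The TATA letters occur in *Sele* only, 49 to 44 bases before the start, against 12.4% of all windows. The GC box (GGGCGG) occurs in 3 of the 6 windows, against 32.7% of all, with 3 copies in *Plaur* whose neighbours share bases or adjoin. The CACCC box occurs in 4 of the 6, against 52% of all, and in *F3* a copy overlaps an AP-1 motif. The kB site, the binding motif of NF-kB, was searched only as GGGRNNYYCC (R is A or G, Y is C or T, N is any base). These letters were matched in none of the 6, against 7.25% of all windows. Sites that differ from these letters were not searched, so the windows cannot be said to lack kB sites. These letter matches are descriptions, and no binding was measured.

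Among the adhesion genes, *Selp* had the largest fold change. *Selp* (ENSMUSG00000026580; chromosome 1, 164115264 to 164150026) was at 0.0587 to 1.42 CPM in Ctrl hearts (median 0.494), at 0.150 to 43.5 CPM in Doxo hearts (median 3.85) and at 0.0951 to 1.42 CPM in Doxo-NMN hearts (median 0.625). Of the 13 Doxo hearts, 9 were above the highest Ctrl heart, and replicates 5, 13 and 4 were highest with 43.5, 33.2 and 23.7 CPM. Replicates 2, 6, 7 and 9 lay within the Ctrl range. The log2 fold change was 4.43 (SE 0.62, adjusted p = 1.03e-07) in Doxo vs. Ctrl, −4.17 (SE 0.63, adjusted p = 2.68e-06) in Doxo-NMN vs. Doxo and 0.26 (SE 0.61, adjusted p = 0.788) in Doxo-NMN vs. Ctrl. In 2 Ctrl hearts, both under 100 CPM of *Myl4*, *Selp* had under 3 counts.

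*Sele* (ENSMUSG00000026582; chromosome 1, 164048234 to 164057677), the neighbour of *Selp* on the same strand, was at 0.522 to 1.37 CPM in Ctrl hearts (median 0.761), 0.347 to 22.6 CPM in Doxo hearts (median 1.32) and 0.192 to 1.15 CPM in Doxo-NMN hearts (median 0.594). In 6 Doxo hearts (replicates 4, 5, 10, 11, 12 and 13) it was above the Ctrl range, and in replicate 2 below it. The groups overlapped in the other 6. *Sele* was higher in Doxo vs. Ctrl (log2 2.51, SE 0.46, adjusted p = 9.63e-06) and lower in Doxo-NMN vs. Doxo (log2 −2.97, SE 0.48, adjusted p = 6.92e-06). With NMN, 5 of 13 hearts were below the lowest Ctrl heart, though the difference to Ctrl did not pass the test (log2 −0.46, 95% interval −1.40 to 0.48, adjusted p = 0.492).

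*Icam1* (ENSMUSG00000037405; chromosome 9, 21015985 to 21028817) was already well detected in Ctrl hearts, at 7.13 to 16 CPM (median 11.3). It reached 10.4 to 72.7 CPM in Doxo hearts (median 21) and was at 8.75 to 15.5 CPM in Doxo-NMN hearts (median 12.1). Above the Ctrl range were 8 of the 13 Doxo hearts and 0 of the 13 Doxo-NMN hearts, and the lowest Doxo heart was replicate 6. Its fold change was smaller than those of the selectins, with a log2 difference of 1.17 (SE 0.21, adjusted p = 6.39e-06) in Doxo vs. Ctrl and −1.14 (SE 0.21, adjusted p = 4.34e-05) in Doxo-NMN vs. Doxo. Between Doxo-NMN and Ctrl it was 0.03 (95% interval −0.39 to 0.45).

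*Vcam1* (ENSMUSG00000027962; chromosome 3, 116109949 to 116129688, minus strand) was the one adhesion gene that did not pass the test. It was at 10.2 to 27 CPM in Ctrl (median 20.5), 4.78 to 22.8 CPM in Doxo (median 14.9) and 9.64 to 39.98 CPM in Doxo-NMN hearts (median 14). No Doxo heart was above the Ctrl range and 4 were below it. The log2 difference of −0.43 in Doxo vs. Ctrl did not pass (95% interval −0.88 to 0.02, adjusted p = 0.0819), and neither did 0.37 in Doxo-NMN vs. Doxo (adjusted p = 0.163). With limma's voom and sample weights *Vcam1* was called lower in Doxo vs. Ctrl (log2 −0.59, adjusted p = 0.0366).

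The Ctrl levels of *Vcam1*, *Selp* and *Icam1* moved with *Myl4*. *Vcam1* was 24.5 ± 3.0 CPM (SD, n = 8) in Ctrl hearts over and 11.8 ± 1.16 CPM (n = 6) in those under 100 CPM of *Myl4*, and the ranges did not overlap. Nor did those of *Selp*, at 0.409 to 1.42 CPM over and 0.0587 to 0.310 CPM under the limit, or of *Icam1*, at 11.18 to 15.96 CPM over and 7.13 to 11.05 CPM under it. In a fit of all 40 hearts with a term for this split, added after the data were examined, *Vcam1* was higher in hearts over the limit by 0.93 on the log2 scale (SE 0.12, adjusted p = 5.72e-08) and *Procr* by 1.03 (SE 0.17, adjusted p = 1.01e-05), while 7.04% of all tested genes were called in this term and the other 7 members were not. Within the hearts under the limit, *Vcam1* differed by −0.01 in Doxo vs. Ctrl (adjusted p = 0.964) and by 0.17 in Doxo-NMN vs. Doxo. Within the hearts over it, the differences were −0.45 (adjusted p = 0.0184, under 1.5-fold) and 0.72 (adjusted p = 0.00497, called). *Selp*, *Sele*, *Icam1*, *Plaur* and *Thbd* were called in Doxo vs. Ctrl on both sides of the limit.

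**Figure D2:**
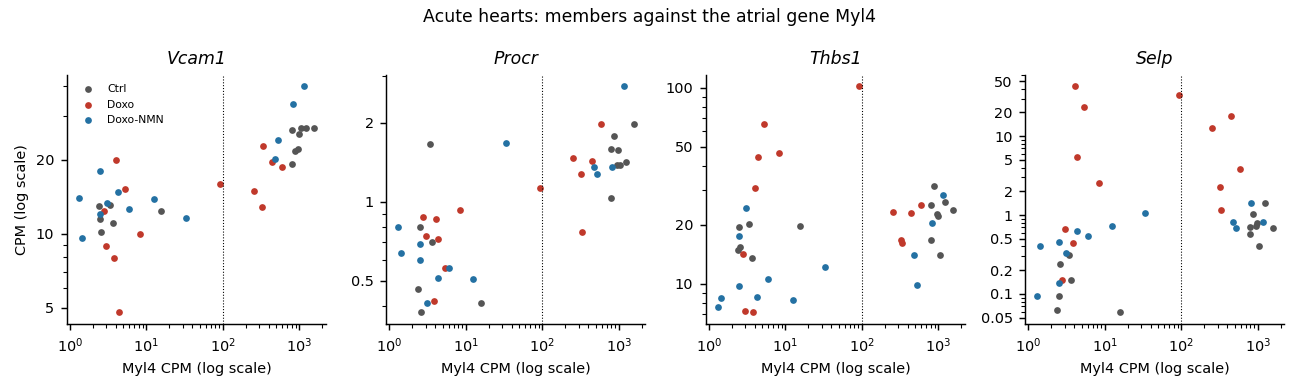
Level of 4 of the genes (CPM, log scale) against that of Myl4 (CPM, log scale) in each acute heart, colored by group, with a dotted line at 100 CPM. Vcam1 and Procr have higher means to the right of the line in all 3 groups, while the highest Thbs1 and Selp values are Doxo hearts to the left of it.

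*Plaur* (ENSMUSG00000046223; chromosome 7, 24462484 to 24475968), the only fibrinolysis gene of the 9, was at 1.75 to 3.82 CPM in Ctrl hearts (median 2.69), 1.68 to 18.2 CPM in Doxo hearts (median 5.37) and 1.70 to 2.83 CPM in Doxo-NMN hearts (median 2.11). Doxo replicate 9 and Doxo-NMN replicate 9 were below the lowest Ctrl heart. The same 9 Doxo hearts that were above the Ctrl range in *Selp* were above it in *Plaur*, and replicates 5, 13 and 4 were again highest, at 18.2, 18.0 and 15.3 CPM. No Doxo-NMN heart was above the Ctrl range. *Plaur* was 2.99-fold the Ctrl level with Doxo (log2 1.58, SE 0.24, adjusted p = 6.07e-07), and Doxo-NMN hearts were at 0.285 of the Doxo level (log2 −1.81, SE 0.25, adjusted p = 1.05e-06).

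Of the 4 clotting genes, *Thbd* had the highest level and was the only one of the 9 called lower with Doxo. *Thbd* (ENSMUSG00000074743; chromosome 2, 148404466 to 148408188, minus strand) was at 66.5 to 94.1 CPM in Ctrl hearts (median 78.8), 30.6 to 84.1 CPM in Doxo hearts (median 40.7) and 26.2 to 76.9 CPM in Doxo-NMN hearts (median 55.8). Below the lowest Ctrl heart were 10 of the 13 Doxo hearts and 11 of the 13 Doxo-NMN hearts. The 3 Doxo hearts within the Ctrl range were replicates 6, 7 and 13, at 73.7, 69.5 and 84.1 CPM. *Thbd* was at 0.597 of the Ctrl level with Doxo (log2 −0.74, SE 0.13, adjusted p = 4.85e-06).

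Unlike the 5 genes that rose, *Thbd* was not called in Doxo-NMN vs. Doxo (log2 0.25, 95% interval −0.02 to 0.51, adjusted p = 0.109). Without Doxo replicate 6 this difference was 0.32 (adjusted p = 0.0329, under 1.5-fold), and in voom 0.51 (adjusted p = 0.000142, under 1.5-fold). Doxo-NMN hearts were at 0.709 of the Ctrl level, with a log2 difference of −0.50 (95% interval −0.76 to −0.23, adjusted p = 0.00432) that is under the 1.5-fold limit of the call.

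*F3* (ENSMUSG00000028128; chromosome 3, 121723537 to 121735048) had close group means and unequal spreads. It was at 12.9 to 17.1 CPM in Ctrl hearts (median 15.4), 4.47 to 26.2 CPM in Doxo hearts (median 18.7) and 13.9 to 19.4 CPM in Doxo-NMN hearts (median 17.2). Above the Ctrl range were 7 Doxo and 7 Doxo-NMN hearts. Below it were 3 Doxo hearts, namely replicates 5 (4.47 CPM), 13 (5.91 CPM) and 4 (12.3 CPM), which had the highest *Selp* and *Plaur*. The log2 difference was 0.13 in Doxo vs. Ctrl (95% interval −0.16 to 0.43, adjusted p = 0.417), while Doxo-NMN vs. Doxo gave 0.03 (95% interval −0.27 to 0.33). Within the hearts over 100 CPM of *Myl4*, which do not include those 3, *F3* was higher in Doxo vs. Ctrl by 0.46 (adjusted p = 3.52e-05, under 1.5-fold).

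*Procr* (ENSMUSG00000027611; chromosome 2, 155751117 to 155755471) was low in all groups, at 0.380 to 1.97 CPM in Ctrl (median 1.38), 0.419 to 1.98 CPM in Doxo (median 0.872) and 0.412 to 2.76 CPM in Doxo-NMN hearts (median 0.689). The groups overlapped almost wholly, with 1 heart above the Ctrl range in each treated group. The log2 difference was −0.22 in Doxo vs. Ctrl (95% interval −0.79 to 0.34, adjusted p = 0.485), while Doxo-NMN vs. Doxo gave −0.00 (95% interval −0.58 to 0.57).

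*Thbs1* (ENSMUSG00000040152; chromosome 2, 118111876 to 118127133) was at 13.5 to 31.5 CPM in Ctrl hearts (median 19.97), 7.15 to 102 CPM in Doxo hearts (median 23.3) and 7.61 to 28.3 CPM in Doxo-NMN hearts (median 10.5). Above the Ctrl range were 4 Doxo hearts (replicates 13, 4, 8 and 10), and below it were 2 Doxo hearts and 8 of the 13 Doxo-NMN hearts. The call in Doxo vs. Ctrl (log2 0.67, SE 0.29, adjusted p = 0.0362) was close to the threshold. It was lost when any 1 of 8 hearts was left out, with 0.39 (adjusted p = 0.184) without Doxo replicate 13, 0.54 (adjusted p = 0.0910) without replicate 4, 0.62 without replicates 8 or 10 in turn, and 0.62 to 0.64 without Ctrl replicates 1, 5, 9 or 12 in turn. In voom with sample weights it was 0.05, and within the hearts over 100 CPM of *Myl4* it was −0.11 (adjusted p = 0.664). The difference in Doxo-NMN vs. Doxo was larger (log2 −1.23, SE 0.30, adjusted p = 0.000710), and −0.21 (adjusted p = 0.529) within the hearts over 100 CPM of *Myl4*. Doxo-NMN vs. Ctrl was −0.56 (adjusted p = 0.150), and −0.76 (adjusted p = 0.00472, called) in voom.

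**Figure D3:**
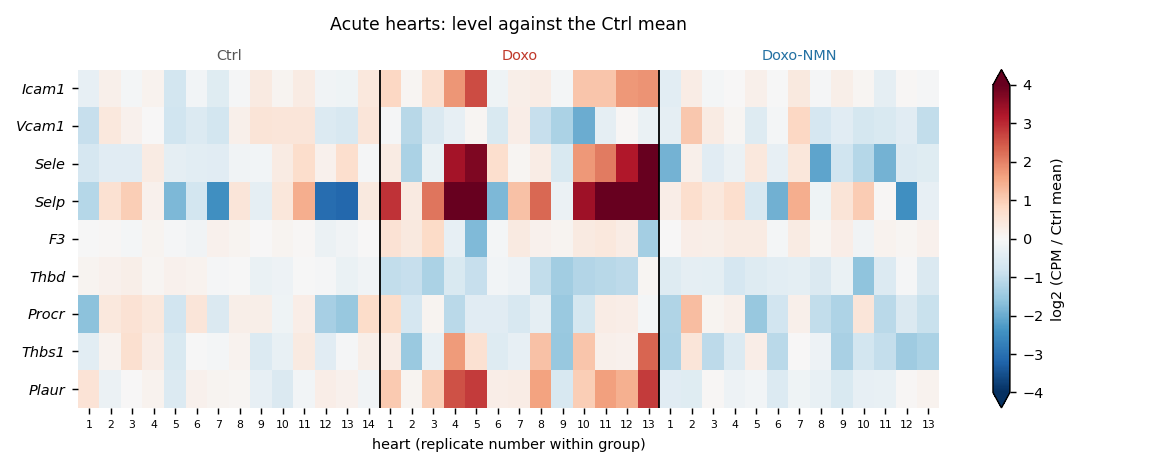
Level of each gene in each acute heart against the Ctrl mean of that gene, as log2 of the ratio, with hearts in columns by group and replicate number; the color scale ends at −4 and 4. Doxo replicates 4, 5, 10, 11, 12 and 13 are high in Icam1, Sele, Selp and Plaur together, and replicate 6 is not.

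In *Icam1*, *Sele*, *Selp* and *Plaur* the Doxo hearts spread more widely than those of the other groups. *Icam1*, *Sele*, *Selp* and *Plaur* were all above the Ctrl range in 6 of the 13 Doxo hearts (replicates 4, 5, 10, 11, 12 and 13), and none of the 4 genes was above it in 4 (replicates 2, 6, 7 and 9). In the Doxo-NMN group, 0 of 13 hearts had all 4 above the Ctrl range and 12 had none, the exception being *Selp* in replicate 7. Within the 13 Doxo hearts, the ranks of *Icam1* and *Selp* were nearly the same (Spearman's rho = 0.99), and those of *Selp* with *Plaur* (0.93), *Sele* (0.87) and *Thbs1* (0.80) were close. In the 14 Ctrl hearts *Icam1* went with *Vcam1* (rho = 0.94) and less with *Selp* (0.67) and *Sele* (0.40), and *Selp* and *Plaur* ran opposite (−0.49). In the 13 Doxo-NMN hearts *Icam1* and *Selp* had a rho of 0.41. *Thbd* had a rho of 0.10 with *Icam1* and *F3* one of −0.33 in Doxo hearts. These correlations are descriptions over hearts that also share differences in atrial tissue and library composition.

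The genes most alike each member were sought among all tested genes, by Spearman's rho of log2 CPM after the group means were removed, over the 40 acute hearts. For *Selp* they were *Osmr* (0.92), the oncostatin M receptor, *Tgfbr2* (0.90), a TGF-beta receptor, and *Itih4* (0.89). For *Icam1* they were *Sat1* (0.89), an enzyme of polyamine breakdown, *Il17ra* (0.87), an interleukin 17 receptor, and again *Osmr* (0.86). *Sele* was most like *Casp4* (0.82), an inflammatory caspase, *Plekho2* (0.81) and *Rab5c* (0.79). *Vcam1* was most like *Sulf1* (0.93), a sulfatase of heparan sulfate, *Ptgfrn* (0.88) and *Pkhd1l1* (0.87), and *Procr* like *Scara3* (0.82), *Slc24a2* (0.81) and *Igfbp6* (0.81). *Thbs1* was most like *Fgl2* (0.79), a fibrinogen-like protein that can cleave prothrombin, *Masp1* (0.78) and *Sdc4* (0.78). The closest genes to *Plaur* (*Sema3f*, *Pde12* and *Por*, 0.69 to 0.71), *Thbd* (*Pmepa1*, *P4ha1* and *Tagln2*, 0.68 to 0.70) and *F3* (*Tspan11*, *Zfp13* and *Tmem18*, 0.66 to 0.68) were less close. Among the members, *Icam1* and *Selp* had the highest rho on this measure (0.81) and *F3* and *Thbd* the lowest (−0.34).

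Neutrophil genes were also higher with Doxo, only partly in the same hearts. All 8 tested of 10 neutrophil markers were called higher in Doxo vs. Ctrl, among them *S100a8* (log2 5.04) and *S100a9* (4.36), which code for the calprotectin subunits, and 5 were lower in Doxo-NMN vs. Doxo and 5 higher in Doxo-NMN vs. Ctrl. Over all tested genes the shares called in these directions were 14.7%, 8.88% and 3.31%. The low-count filter can keep a gene through the hearts where it is high, which may hold for some of these 8. The 10 markers summed to 2.73 to 8.07 CPM in Ctrl, 4.44 to 352 in Doxo and 6.29 to 37.2 in Doxo-NMN hearts. *Ly6g*, a defining neutrophil marker, had 0 counts in all Ctrl hearts and at most 0.731 CPM in Doxo hearts. The summed level of the neutrophil markers was highest in Doxo replicates 13 (352 CPM), 8 (94.2 CPM), 4 (54.0 CPM) and 5 (46.1 CPM), and 4.44 CPM in replicate 6. In other hearts the order was different. Doxo replicates 1 and 3, in which *Icam1*, *Selp* and *Plaur* were above the Ctrl range, had sums of 6.45 and 8.24 CPM, and replicates 2, 7 and 9, in which none of the 4 genes was, had 14.5, 18.9 and 12.1 CPM. Doxo-NMN replicates 9 and 10, also with none of the 4 above the Ctrl range, had 34.6 and 37.2 CPM. The part of these cells in the results was not tested. The 10 endothelial markers summed to 723 to 1035 CPM in Ctrl, 625.1 to 1074 CPM in Doxo and 646 to 897 CPM in Doxo-NMN hearts. Of them 2 were called higher (*Flt1*, *Cldn5*) and 1 lower (*Kdr*) in Doxo vs. Ctrl, with a median log2 fold change of −0.09. The 9 platelet markers summed to 11.8 to 34.7, 11.9 to 30.5 and 12.2 to 46.7 CPM in the 3 groups, and 1 of 6 tested, *Gp1ba*, was called higher with Doxo. Over all tested genes 14.7% were called higher and 15.4% lower with Doxo. The endothelial and platelet counts are near those shares, and so are no result about these lists.

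On the scale of CPM per kb of exon, which allows genes to be compared, *Thbd* was highest in every group of both studies. In acute Ctrl hearts it stood at 21.4 ± 2.42 CPM per kb (SD, n = 14), apart from *F3* at 6.04 ± 0.483, and was followed by *Thbs1* (3.36 ± 0.863), *Icam1* (2.71 ± 0.588), *Vcam1* (2.15 ± 0.775), *Plaur* (0.992 ± 0.212), *Procr* (0.582 ± 0.267), *Sele* (0.287 ± 0.0932) and *Selp* (0.118 ± 0.0916). From *F3* down, each gene's range overlapped the next. In Doxo hearts *Thbd* (12.8 ± 4.59, n = 13) and *F3* (6.63 ± 2.46) overlapped, *Icam1* (6.11 ± 4.08) came before *Thbs1*, and *Selp* (2.58 ± 3.22) came before *Sele*, *Vcam1* and *Procr*, with overlap between all neighbours. In Doxo-NMN hearts *Selp* was last again, at 0.142 ± 0.0828 CPM per kb (n = 13).

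**Figure D4:**
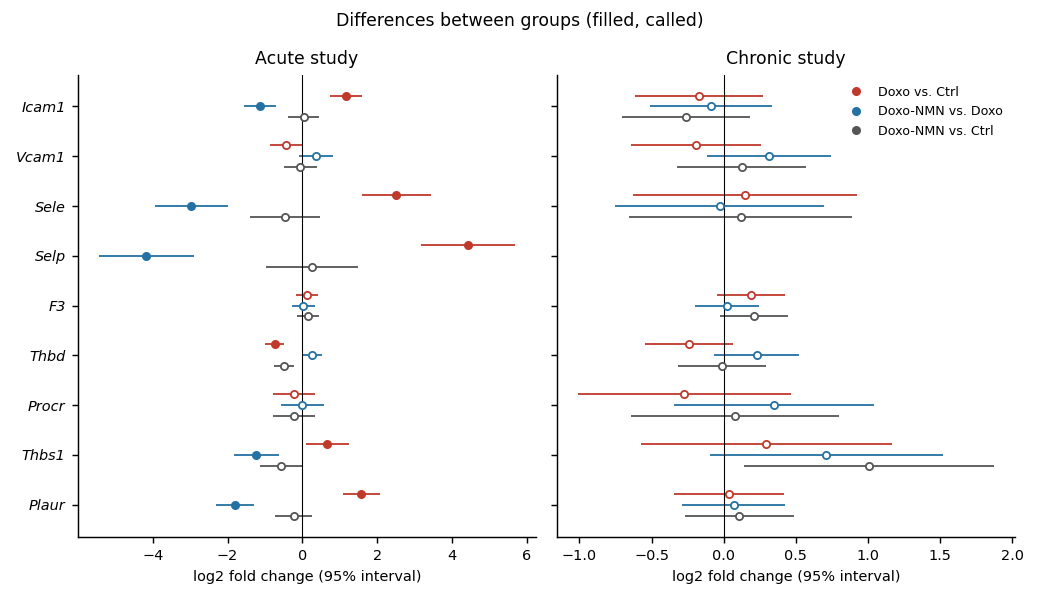
Log2 fold change of each gene with its 95% interval in the 3 comparisons of the acute (left) and chronic (right) study, on axes of different length. Filled points were called, open points were not; Selp was not tested in the chronic study, and no chronic point is filled.

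In the chronic study, none of the 8 tested genes was called in any comparison. Calls there needed only an adjusted p under 0.05, and 0.0602% of 14960 tested genes passed in Doxo vs. Ctrl, 0% in Doxo-NMN vs. Doxo and 0.0401% in Doxo-NMN vs. Ctrl. Unadjusted p-values under 0.05 were reached by 0, 0 and 1 of the 8 genes, and DESeq2 and limma's voom also called 0 in each comparison. *Selp* had too few counts to be tested, with 0 to 7 counts in Ctrl, 2 to 9 in Doxo and 0 to 20 in Doxo-NMN hearts. A count of 0, seen in Ctrl replicate 5 and Doxo-NMN replicate 3, allows up to 0.170 and 0.141 CPM.

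The chronic levels of the genes that rose in the acute study were as follows. *Icam1* was at 19.4, 14.8, 15.1, 20.1 and 18.4 CPM in the 5 Ctrl hearts, at 8.96 to 28.1 CPM in Doxo (median 13.8) and at 11.2 to 18.3 CPM in Doxo-NMN hearts (median 14.4). In 4 of the 6 Doxo hearts it was below the Ctrl range and in 1, replicate 5, above it. The log2 difference in Doxo vs. Ctrl was −0.17 (95% interval −0.62 to 0.27, adjusted p = 0.859). *Plaur* was at 4.14, 3.10, 2.14, 3.35 and 3.11 CPM in Ctrl, 2.64 to 4.58 CPM in Doxo (median 3.10) and 2.73 to 4.44 CPM in Doxo-NMN hearts (median 3.34), so that the groups overlapped, and its difference was 0.04 (95% interval −0.34 to 0.42). *Sele* was at 0.381, 1.16, 1.49, 1.06 and 0.962 CPM in Ctrl and 0.115 to 1.48 CPM in Doxo hearts (median 1.28), with a difference of 0.15 (95% interval −0.63 to 0.92).

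*Thbd* in the chronic study was at 96.9, 83.4, 67.8, 78.2 and 78.8 CPM in Ctrl, 37.6 to 84.7 CPM in Doxo (median 73.0) and 70.1 to 89.1 CPM in Doxo-NMN hearts (median 80.9). Below the Ctrl range were 2 of the 6 Doxo hearts and none with NMN, and the log2 difference in Doxo vs. Ctrl was −0.24 (95% interval −0.55 to 0.07, adjusted p = 0.699). *F3* differed by 0.19 (95% interval −0.05 to 0.42), *Procr* by −0.27 (95% interval −1.01 to 0.46) and *Vcam1* by −0.19 (95% interval −0.64 to 0.26).

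*Thbs1* had the largest chronic differences. It was at 5.50, 9.15, 9.54, 6.70 and 9.45 CPM in Ctrl and 3.62 to 15.6 CPM in Doxo hearts (median 9.26). The Doxo-NMN hearts lay in 2 ranges, with 24.2, 28.4 and 25.1 CPM in replicates 2, 3 and 4, all above the other chronic hearts, and 5.75, 6.32 and 7.62 CPM in replicates 1, 5 and 6. The log2 difference in Doxo-NMN vs. Ctrl was 1.01 (95% interval 0.14 to 1.87), with an unadjusted p of 0.0251 and an adjusted p of 0.999. Doxo-NMN replicate 4 was above the Ctrl range in 7 of the 9 genes and Doxo replicate 2 below it in 6. That range came from only 5 Ctrl hearts, and the share of all genes outside it in these hearts is not given. The counts are therefore no result about the 9 genes as a set. Doxo-NMN replicate 4 also had the highest *Myl4* (83.8 CPM), and Doxo replicate 2 the lowest red cell sum (16.2 CPM) and the highest atrial sum (573 CPM), of the chronic hearts. The part of these differences in the results was not tested.

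**Figure D5:**
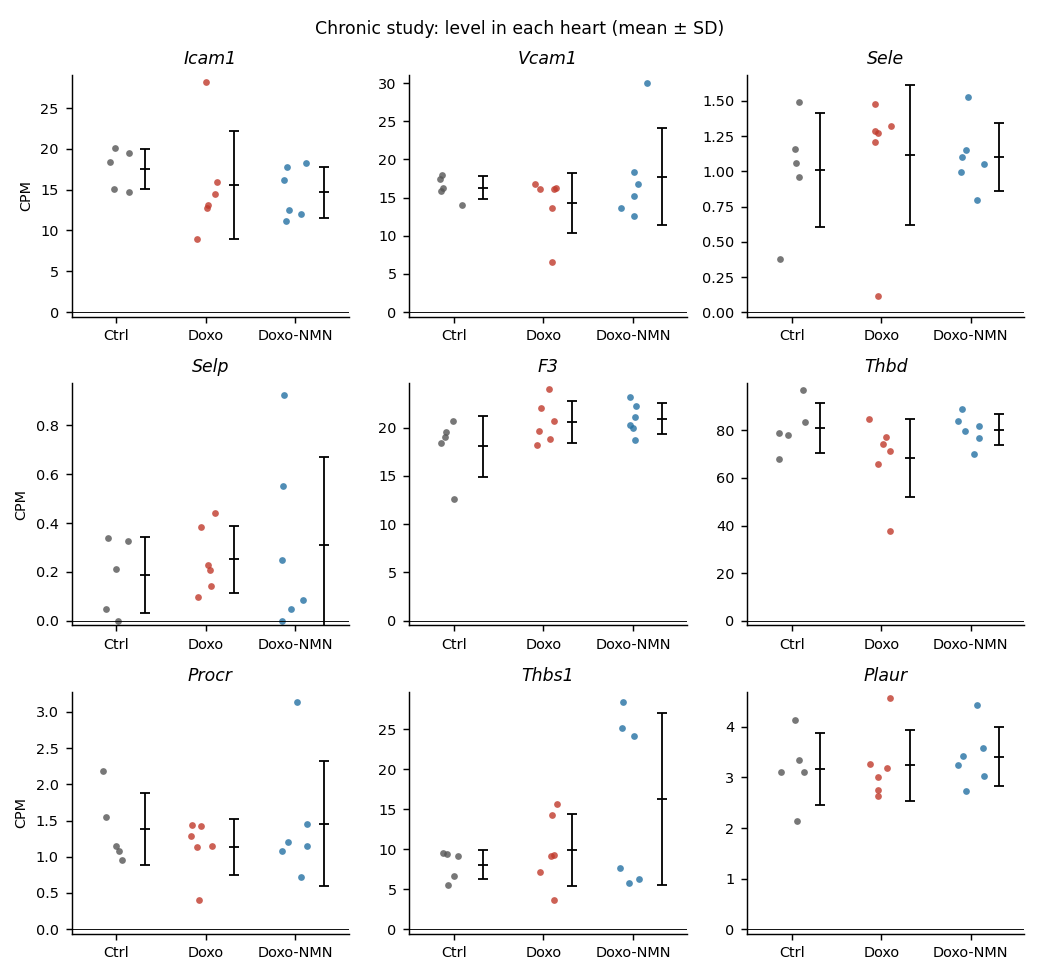
Level of each gene (CPM) in each of the 17 chronic hearts by group, with the mean ± SD beside the points. The groups overlap in all 9 genes, and 3 Doxo-NMN hearts stand at 24.2 to 28.4 CPM in Thbs1.

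Whether the effect of Doxo differed between the regimens was tested as an interaction in 1 fit of the Ctrl and Doxo hearts from the acute and the chronic study. Of 14965 tested genes 19.3% were called at an adjusted p under 0.05, beside 2 of the 9 members. This count is near the share over all genes, and so is no result about the 9 as a set. The Doxo effect was larger in the acute study for *Icam1*, by 1.34 on the log2 scale (SE 0.42, adjusted p = 0.0247), and for *Plaur*, by 1.54 (SE 0.48, adjusted p = 0.0246). For *Sele* the difference was 2.36 (95% interval 0.53 to 4.19, adjusted p = 0.0601), for *Selp* 4.02 (95% interval 0.38 to 7.66, adjusted p = 0.102) and for *Thbd* −0.50 (95% interval −0.99 to −0.02, adjusted p = 0.122). DESeq2 called *Sele* and *Selp* as well (adjusted p = 0.0319 and 0.00766), and without acute Doxo replicate 6 *Sele* was called (adjusted p = 0.0367). The studies differed in dose schedule, day, age, supplier and sequencing site, which cannot be told apart.

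Other genes of the same pathways were counted from fixed lists, beside a median log2 fold change of −0.00 over all genes tested in acute Doxo vs. Ctrl, of which 14.7% were called higher and 15.4% lower. No list was tested against other genes. Of 19 tested leukocyte adhesion genes, 4 were called higher and 5 lower (median 0.02). Among the higher were *Cd47* (log2 0.66), the ligand of SIRPA and a receptor of thrombospondin 1, *Esam* (0.78), a junction protein of endothelium, and *Itgam* (0.92), a subunit of the integrin Mac-1, which binds ICAM-1. Lower were *Icam2* (−0.84), an ICAM that endothelium carries at rest, *Cd34* (−0.87), *Selplg* (−0.98), the leukocyte ligand of P-selectin, and *Itga4* (−0.92), a subunit of the integrin that binds VCAM-1, and *Itgal* (−0.82), a subunit of the integrin LFA-1, which binds ICAM-1. *Selplg* averaged 2.79 ± 0.378 CPM in the 14 Ctrl hearts (SD), 1.40 ± 0.585 CPM in the 13 Doxo hearts and 2.83 ± 0.897 CPM in the 13 Doxo-NMN hearts (log2 1.01 in Doxo-NMN vs. Doxo, adjusted p = 2.31e-05). Some macrophage and lymphocyte markers were also lower with Doxo. Of 11 macrophage and monocyte markers 5 were called lower and 0 higher in Doxo vs. Ctrl, among them *Ccr2* (−1.78), *Adgre1* (−1.44) and *Csf1r* (−1.07). *Cd68* went the other way (0.45, adjusted p = 0.00771, under 1.5-fold), the only one of the 11 to do so. The 11 markers summed to 300.3 to 433 CPM in Ctrl, 144 to 410.1 in Doxo and 227 to 440.3 in Doxo-NMN hearts. Both tested of 8 lymphocyte markers, *Cd79a* (−1.15) and *Cd79b* (−1.43), were lower as well. Their part in the fall of *Selplg*, *Itga4* and *Itgal* was not tested. *Icam2* was also higher in Doxo-NMN vs. Doxo (log2 0.65, adjusted p = 2.90e-05) and *Esam* lower (−0.80, adjusted p = 3.11e-05).

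Of 21 tested coagulation genes, 4 were higher and 3 lower in Doxo vs. Ctrl (median −0.06). These counts were near the shares over all tested genes, 14.7% higher and 15.4% lower, and so are no result about the list. Higher were *Thbs2* (log2 1.32), a matrix thrombospondin, *Gas6* (0.65), a vitamin K-dependent ligand of TAM receptors, *Entpd1* (0.89), which breaks down the platelet agonist ADP, and *F10* (1.18), factor X, at under 1 CPM on average in all groups. Lower were *F2rl1* (−1.54), a protease-activated receptor, *Tfpi2* (−1.08), a serine protease inhibitor, and *F7* (−0.93), factor VII, the partner of tissue factor, at 0.249 ± 0.126 CPM in Ctrl (SD, n = 14). With NMN, *Entpd1* was lower (−0.86) and *F2rl1* (0.76) and *F7* (1.21) were higher than in Doxo hearts. *Thbs2* averaged 22.4 ± 3.02 CPM in the 14 Ctrl hearts (SD), 55.9 ± 23 CPM in the 13 Doxo hearts and 38.6 ± 12.1 CPM in the 13 Doxo-NMN hearts, a log2 difference of −0.53 to Doxo (adjusted p = 0.00582, under 1.5-fold).

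Of 10 tested fibrinolysis genes, 4 were lower with Doxo (median of the 10, −0.12), against 15.4% of all tested genes. *Plau*, urokinase itself, was lower (log2 −1.28, adjusted p = 5.48e-05), from 4.17 ± 1.05 CPM (SD, n = 14) to 1.70 ± 1.57 CPM (n = 13). *Anxa2* (−1.23) and *S100a10* (−1.16), which form a surface receptor of plasminogen and tPA, were lower, as was *Vtn* (−1.08), vitronectin, which binds the urokinase receptor. When Doxo-NMN was compared with Doxo, these 4 were called with the reverse sign, by 0.61 to 0.80 on the log2 scale. Over all tested genes 8.17% were called higher there.

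Of 15 tested genes of cytokine and NF-kB signalling, 8 were higher and 0 lower with Doxo, against 14.7% and 15.4% of all tested genes. The median was 0.68, and 14 of 15 fold changes were above 0. Among those called, the 4 with the smallest adjusted p were *Nfkbia* (log2 1.85) and *Tnfaip3* (1.65), which restrain NF-kB and are its targets, *Birc3* (1.51), an apoptosis inhibitor, and *Tnfrsf1a* (1.18), a TNF receptor. Of the NF-kB subunits, *Nfkb1* (−0.28, adjusted p = 6.76e-07) and *Rela* (0.45, adjusted p = 1.85e-06) differed by less than 1.5-fold. In Doxo-NMN vs. Doxo 11 of the 15 were lower and 0 higher, against 8.88% and 8.17% of all tested genes. The log2 differences of *Nfkbia*, *Tnfaip3*, *Birc3* and *Tnfrsf1a* there were −1.91 to −0.82. In Doxo-NMN vs. Ctrl, 1 higher and 1 lower call were made in this list, against 3.31% and 3.79% of all tested genes. Of 8 vessel tone genes, *Klf2* (0.82), a flow-responsive factor, and *Ptgs1* (0.80), cyclooxygenase 1, were higher and *Tbxas1* (−0.76), thromboxane synthase, was lower with Doxo. Over all tested genes 14.7% were higher and 15.4% lower, so these few vessel tone calls are no result about that list. In the chronic study no gene of these 5 lists was called in any comparison.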

How the data were processed

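RNA-seq of 57 mouse hearts was used, 40 acute and 17 chronic. The authors sequenced poly(A) RNA as single-end reads, mapped them to mm10 with STAR (2.7.3a in the submitters' processing notes) and deposited raw read counts per gene from featureCounts 2.0.0. The strand setting is not given in the sources used here. In the acute table a median of 73.6% of the counts between 1 and 20 in a heart were even, against 40.3% in the chronic table, so acute low counts may hold reads counted in pairs.

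Each table was fitted on its own with edgeR 4.0.16 (R 4.3.3): filterByExpr, TMM scaling and the quasi-likelihood test over the 3 groups, with Benjamini-Hochberg adjustment over all tested genes. Total counts ranged from 32409622 to 52102850 (acute) and 17769886 to 23862287 (chronic). DESeq2 1.42.0 and limma 3.58.1 (voom with sample weights) were alternatives, with no low-count filter, only the groups compared, a replicate block, each heart left out, and hearts on each side of 100 CPM of *Myl4*. The term for *Myl4* was added after seeing the data. Scripts were tested on simulated data. The genes and gene lists were chosen with earlier results of these data known. Named were the 9 genes, the genes most alike them, up to 4 genes per pathway list and direction by adjusted p in acute Doxo vs. Ctrl, and marker genes set beside a result; *Itgal* was named after its value was seen, and some genes that this rule names are not reported here. No replicate pair agreed within sampling noise (lowest chi-square per gene 5.49). Gene positions are from GENCODE M21 and promoter sequences from RefSeq, both GRCm38.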

Additional observations from a re-analysis of the deposited data

Results flagged for a closer look

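In the chronic study, 8 values stood far from the others of their group by Dixon's test, among 27 groups tested, of which chance flags about 1 in 20. In Doxo replicate 5, *Icam1* was high at 28.1 CPM and *Plaur* at 4.58 CPM. In Doxo replicate 2, *Vcam1* was low at 6.55 CPM, *Sele* at 0.115 CPM and *Procr* at 0.402 CPM. In Doxo-NMN replicate 4, *Vcam1* was high at 29.9 CPM and *Procr* at 3.14 CPM, and in Ctrl replicate 1 *F3* was low at 12.6 CPM.

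The Doxo effect differed between the acute and the chronic study in an interaction test for *Icam1*, by 1.34 on the log2 scale (edgeR's adjusted p = 0.0247), and for *Plaur*, by 1.54 (edgeR's adjusted p = 0.0246). *Icam1* was above the Ctrl range in 8 of 13 acute and 1 of 6 chronic Doxo hearts, and *Plaur* in 9 of 13 and 1 of 6. In the interaction test 19.3% of all tested genes were called, beside 2 of the 9 members. The count is near that share, and so is no result about the 9 as a set.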

How the results depend on the processing

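Of 2258 values of the 9 genes under the alternatives, 2234 kept their direction where called and their side of the threshold. *Thbs1* in acute Doxo vs. Ctrl did not, reversing to −0.11 within hearts over 100 CPM of *Myl4* and missing the threshold without a low-count filter (0.64), with only the groups compared (0.67), in voom (0.05) and when 1 of 8 hearts was left out (range over all hearts left out 0.39 to 0.75). The cause was not tested. Replicate numbers did not pair hearts (median correlation of same-numbered hearts 0.0605 acute, 0.0223 chronic), and with the replicate block 5, 5 and 0 of the 9 were called in the acute comparisons, *Thbs1* (0.46, adjusted p = 0.171 in edgeR) being lost. In acute Doxo-NMN vs. Ctrl 1 of the 9 was called in voom (*Thbs1*) and 1 with no fold change cutoff (*Thbd*), and in the interaction 4 in DESeq2. Leaving out each heart in turn gave 5 to 6, 5 to 5 and 0 to 0 members acute and 0 chronic. In the interaction only acute Doxo replicate 6 was left out, which gave 3 members, and no other heart was left out there.

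Over all genes, acute Doxo-NMN vs. Ctrl gave 1012 calls, against 1698 without a low-count filter, 575 and 599 under and over 100 CPM of *Myl4* and 3705 with no fold change cutoff. Without that cutoff Doxo vs. Ctrl gave 9694 (against 4289) and Doxo-NMN vs. Doxo 7554 (against 2428). Chronic Doxo vs. Ctrl gave 9, against 15 without the filter, 23 in DESeq2 and 54 in voom, and Doxo-NMN vs. Ctrl 6, against 26 in voom. With 1 heart left out the counts were 4052 to 4758, 2158 to 2986 and 842 to 1157 in the acute comparisons, and 5 to 11 in chronic Doxo vs. Ctrl, with 5 without Ctrl replicates 2, 3 or 5. The interaction gave 2887, and 4604 without acute Doxo replicate 6. *Selp* and *Sele* in chronic and Ctrl hearts rest on few counts, which limits what could be detected.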
